A study of Mus musculus with 7 samples.

Results

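The genes described here are the 9 class I MHC heavy chain genes H2-K1, H2-D1, H2-Q4, H2-Q6, H2-Q7, H2-T10, H2-T22, H2-T23 and H2-M3, together with B2m, the gene of their common light chain. They were taken by symbol, not by their values, and are 10 of the 56953 genes in the count tables. RNA was measured in cells sorted from tumours of the mouse melanoma line B16. All 7 mice received radiotherapy (RT) at 8 Gy, and tumours were taken 5 days after treatment. The AAV-iIL12 group (3 libraries) also received AAV-iIL12, an adeno-associated virus vector named for interleukin 12, a cytokine known for inducing interferon gamma. The AAV-iLuc group (4 libraries) received RT with the control vector AAV-iLuc, so irradiation and a vector are common to both groups. The promoters of the vectors, and the strain, sex and age of the mice, are not given in the sources used here. The titles of the AAV-iIL12 samples carry "WT", which they do not explain. The sort kept live cells without CD45, a leukocyte surface protein, and without CD31, an endothelial one.

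A class I molecule is a heavy chain held together with β2-microglobulin, and in most of them a short peptide from inside the cell lies in the groove of the heavy chain. The classical molecules, here the products of H2-K1 and H2-D1, show these peptides to CD8+ T cells and are read by inhibitory receptors of natural killer cells. The Q, T and M genes encode non-classical molecules, which are less variable and often have narrower ligands. B16 cells are known for low class I levels that interferon gamma raises. Class I promoters are known to hold a κB site, an interferon-stimulated response element bound by IRF proteins, and an SXY module through which NLRC5 acts.

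The upstream sequences of the members whose values carry the results show this layout and where it varies. They are RefSeq promoter entries (mouse GRCm38.p6), written 5′ to 3′ on the strand of the gene and trimmed to the stretch around the motif matches. Capitals mark matches to GAAANNGAA or GAANNGAAA (IRF-type, at 2 spacings), GGGNNTTCC (NF-kB-type), TGACG (X2-like) and CTGATTGG (Y-like), searched on both strands, so that an IRF-type match on the other strand is capitalised as its reverse complement. A run of 2 complete GAAA repeats that are 2 bases apart matches only the first IRF-type pattern. H2-K1 lies at chr17:34000379-34000463 on the minus strand, H2-D1 at chr17:35262918-35263053 on the plus strand, H2-Q4 at chr17:35379439-35379553 on the plus strand, and H2-T22 at chr17:36042755-36042937 on the minus strand. H2-T23 lies at chr17:36032741-36032829 on the minus strand, H2-M3 at chr17:37270128-37270197 on the plus strand, and B2m at chr2:122147543-122147618 on the plus strand.
H2-K1: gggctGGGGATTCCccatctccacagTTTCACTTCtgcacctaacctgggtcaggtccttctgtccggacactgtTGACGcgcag
H2-D1: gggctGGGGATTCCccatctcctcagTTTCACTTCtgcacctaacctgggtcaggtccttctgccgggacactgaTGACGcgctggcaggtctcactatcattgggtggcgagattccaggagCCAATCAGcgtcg
H2-Q4: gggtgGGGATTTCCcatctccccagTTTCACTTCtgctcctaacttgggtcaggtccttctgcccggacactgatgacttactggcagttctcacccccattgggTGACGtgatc
H2-T22: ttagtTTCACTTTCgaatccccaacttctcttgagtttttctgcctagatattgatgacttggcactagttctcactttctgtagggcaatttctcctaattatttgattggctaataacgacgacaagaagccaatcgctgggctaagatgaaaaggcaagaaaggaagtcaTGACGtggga
H2-T23: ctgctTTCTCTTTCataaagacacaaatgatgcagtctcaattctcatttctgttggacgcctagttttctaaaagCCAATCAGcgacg
H2-M3: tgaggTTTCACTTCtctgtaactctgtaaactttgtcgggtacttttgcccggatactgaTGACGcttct
B2m: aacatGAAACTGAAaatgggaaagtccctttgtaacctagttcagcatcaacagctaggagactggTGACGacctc

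The table held a promoter for 9 of the 10 members, all but H2-T10. An IRF-type match at either spacing was present in 9 of the 9 promoters, against 12.5% of all 32851 promoters of the table over the same 250 upstream bases. The GAAANNGAA spacing was found in 3 (H2-T22, H2-T23 and B2m; 7.13% of all promoters), and the GAANNGAAA spacing in the other 6 (6.31% of all). The second spacing was added to the search after the promoters had been seen. The NF-kB-type match was found in 5 of 9 (H2-K1, H2-D1, H2-Q4, H2-Q6 and H2-Q7; 4.98% of all), the X2-like match in 7 (17.8% of all) and the Y-like match in 4 (3.83% of all). In H2-Q4 and H2-T22 the X2-like match lay nearer the start than the stretch that lines up with that of H2-D1, which reads TGACT. For these genes it is a letter match outside that place in the layout. The search ended at the annotated start, and the X2-like match began 41 bases before it in H2-K1 and 46 in H2-M3. A Y-like match spaced as in H2-D1 would fall past the start in both, so its absence there is not shown. All the matches are letter matches and were not tested as binding sites.

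**Figure D1:**
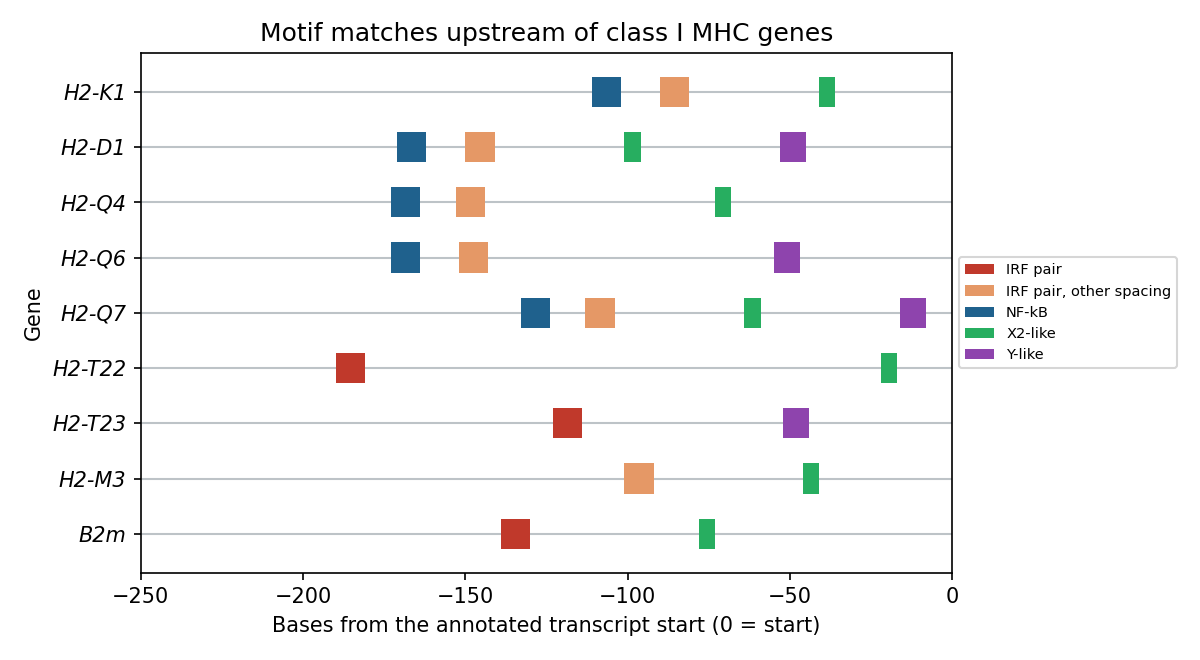
Position of each motif match in the 250 bases upstream of the annotated transcript start (x axis, bases; 0 is the start) for 9 members (y axis). Every gene has an IRF-type box (red or orange, by spacing), and the blue NF-kB-type boxes lie upstream of H2-K1, H2-D1 and the Q genes.

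Class I genes were far more abundant in the AAV-iIL12 libraries. The 10 genes together took 1.004% ± 0.18 (SD, n = 3) of all counts there and 0.115% ± 0.043 (SD, n = 4) in AAV-iLuc. Of the 8 members with enough counts to be tested, 8 rose (edgeR, adjusted p under 0.05 over all genes), where 23.5% of the 13990 genes tested rose and 23.7% fell. With library size as the only scaling, 36.0% of all calls were rises in place of 49.8%, and it was 38.5% with the upper quartile. The 8 folds ran from 7.37 (B2m) to 26.1 (H2-T23), with a median of 3.54 on the log2 scale against -0.01 for all genes tested. For 8 of 8 every AAV-iIL12 library was above every AAV-iLuc library, as for 25.9% of all genes tested. The lowest AAV-iIL12 library stood 4.47 times (B2m) to 12.4 times (H2-T23) above the highest AAV-iLuc library. H2-T10 passed the filter through the AAV-iIL12 libraries, since only AAV-iLuc replicate 1 held more than 10 of its counts in the other group. A rise was therefore nearly the only call open to it, and its place among the 8 is a description only.

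Replicate 1 led in both groups. AAV-iIL12 replicate 1 was the highest of its group for 8 of 8 members and AAV-iLuc replicate 1 for 8 of 8. AAV-iLuc replicate 1 was 1.31 times (B2m) to 2.85 times (H2-T10) the next library. It also had the most leukocyte signal of all libraries: the summed level of 16 leukocyte markers was 15.03 CPM (counts scaled to the size of the library, with TMM factors) there, 1.49 to 3.20 CPM in the other AAV-iLuc libraries and 6.43 to 10.3 CPM in AAV-iIL12. None of the 5 of these markers that could be tested passed the edgeR test. Values without that library are given below beside each member.

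**Figure D2:**
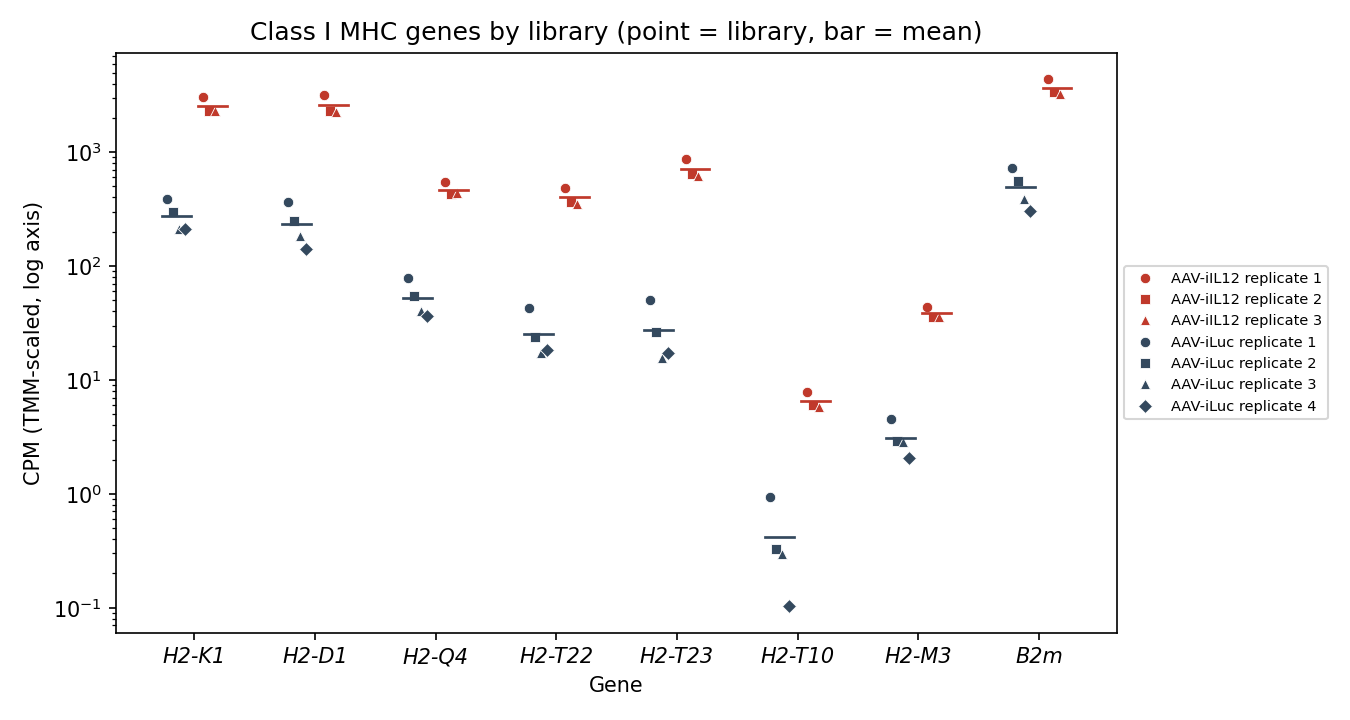
Level of the 8 tested members in each library (y axis, TMM-scaled CPM, log axis), in red for AAV-iIL12 (n = 3) and dark blue for AAV-iLuc (n = 4), with bars at the group means. The groups do not overlap for any of the 8, and replicate 1 (circles) is the highest of its group for each.

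B2m encodes β2-microglobulin, the light chain that heavy chains need in order to fold and reach the surface. The gene (ENSMUSG00000060802.9) lies on chromosome 2, 121978167 to 121983564, in GRCm39, the build of the count tables. Its level was 4360, 3345 and 3257 CPM in the 3 AAV-iIL12 libraries. It was 729, 558, 391 and 304 CPM in the 4 AAV-iLuc libraries. B2m was thus already well expressed in the control group, where its mean ranked 229 among all genes tested, and it ranked 12 in AAV-iIL12. The log2 fold change was 2.88 ± 0.26 (SE, edgeR adjusted p = 1.69e-05), the smallest of the 8, and 3.13 without AAV-iLuc replicate 1.

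H2-K1 and H2-D1, the classical heavy chain genes, were the most abundant heavy chains in both groups. H2-K1 (ENSMUSG00000061232.17, chromosome 17, 34214991 to 34219321) stood at 3057, 2318 and 2286 CPM in AAV-iIL12. In AAV-iLuc it stood at 390, 295, 212 and 211 CPM. Its mean moved from rank 584 to rank 20, and its log2 fold change was 3.20 ± 0.21 (SE, adjusted p = 3.47e-06), or 3.42 without AAV-iLuc replicate 1. H2-D1 (ENSMUSG00000073411.13, chromosome 17, 35481706 to 35486475) had 3171, 2320 and 2276 CPM in AAV-iIL12. Its AAV-iLuc values were 368, 250, 183 and 141 CPM. The log2 fold change came to 3.46 ± 0.28 (SE, edgeR adjusted p = 1.07e-05), or 3.76 without AAV-iLuc replicate 1, with a rank of 17 in place of 766.

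Among the Q genes only H2-Q4 had more than a few counts. H2-Q4 (ENSMUSG00000035929.12, chromosome 17, 35598593 to 35604266) was at 543, 425 and 434 CPM in AAV-iIL12. It was at 79.3, 54.8, 40.2 and 36.6 CPM in AAV-iLuc. Its log2 fold change, 3.15 ± 0.23 (SE, edgeR adjusted p = 6.64e-06; 3.42 without AAV-iLuc replicate 1), was close to that of H2-K1. H2-Q6 and H2-Q7, whose products belong to the Qa-2 antigens, did not pass the low-count filter. H2-Q6 had 6, 8 and 3 counts in AAV-iIL12 and 1, 0, 0 and 2 in AAV-iLuc. Per total count scaled with the TMM factors, that is a ratio of 7.87 with an exact 95% interval of 2.28 to 41.9. H2-Q7 had 10, 6 and 9 counts against 4, 1, 0 and 0, a ratio of 6.95 on the same scale with an interval of 2.61 to 23.2. These intervals cover counting error only.

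The T genes had the largest fold changes of the 8. H2-T23 encodes the heavy chain of Qa-1, which presents leader peptides of other class I chains and is the ligand of the CD94-NKG2A receptor. The gene (ENSMUSG00000067212.9, chromosome 17, 36340665 to 36343747) was at 877, 647 and 623 CPM in AAV-iIL12. In AAV-iLuc it was at 50.1, 26.5, 15.5 and 17.4 CPM. The log2 fold change was 4.70 ± 0.37 (SE, adjusted p = 8.22e-06), or 5.18 without AAV-iLuc replicate 1.

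H2-T22 and H2-T10 encode closely related molecules that are known as ligands of a subset of γδ T cells and carry no peptide. H2-T22 (ENSMUSG00000056116.19, chromosome 17, 36348020 to 36353639) was at 489, 364 and 354 CPM in AAV-iIL12. In AAV-iLuc it was at 42.5, 23.6, 17.2 and 18.4 CPM. The 2 groups were far apart, with a log2 fold change of 3.98 ± 0.28 (SE, edgeR adjusted p = 5.17e-06; 4.35 without AAV-iLuc replicate 1). H2-T10 (ENSMUSG00000079491.11, chromosome 17, 36426768 to 36432357) was at 7.80, 6.08 and 5.77 CPM against 0.94, 0.33, 0.30 and 0.10 CPM. Its log2 fold change was 3.94 ± 0.39 (SE), or 4.74 without AAV-iLuc replicate 1, when 6, 5 and 2 counts were left in the control group. Since H2-T10 reached the filter through the AAV-iIL12 libraries, its values are given as a description.

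H2-M3 encodes a heavy chain that presents peptides beginning with N-formylmethionine. The gene (ENSMUSG00000016206.7, chromosome 17, 37581111 to 37585375) was at 43.6, 35.4 and 36.0 CPM in AAV-iIL12. It was at 4.52, 2.91, 2.86 and 2.06 CPM in AAV-iLuc. It was the least abundant of the members with more than 10 counts in every library, and had a log2 fold change of 3.63 ± 0.19 (SE, edgeR adjusted p = 1.19e-06; 3.88 without AAV-iLuc replicate 1).

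Several of these genes share sequence, and fragments that fit more than 1 place were not counted by the settings in the file headers. Of the 50-base stretches in the transcripts of an older annotation (GENCODE vM21), H2-T22 shared 44.7% with another gene (37.9% with H2-T10), H2-T10 shared 43.0%, H2-Q4 39.2%, H2-Q6 34.97%, H2-Q7 34.94% and H2-T23 29.8%. The shares were 14.3% for H2-D1, 8.79% for H2-K1, 0.576% for H2-M3 and 0 for B2m. Levels of the Q and T genes, and the split between H2-T10 and H2-T22, are therefore less certain than those of H2-M3 and B2m. Summed, H2-T10 and H2-T22 had a log2 fold change of 3.98 (edgeR adjusted p = 5.51e-06). H2-T22 made up most of that sum, with a mean of 402 of 409 CPM in AAV-iIL12. The sum holds none of the uncounted fragments, so it cannot settle how much they matter.

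**Figure D3:**
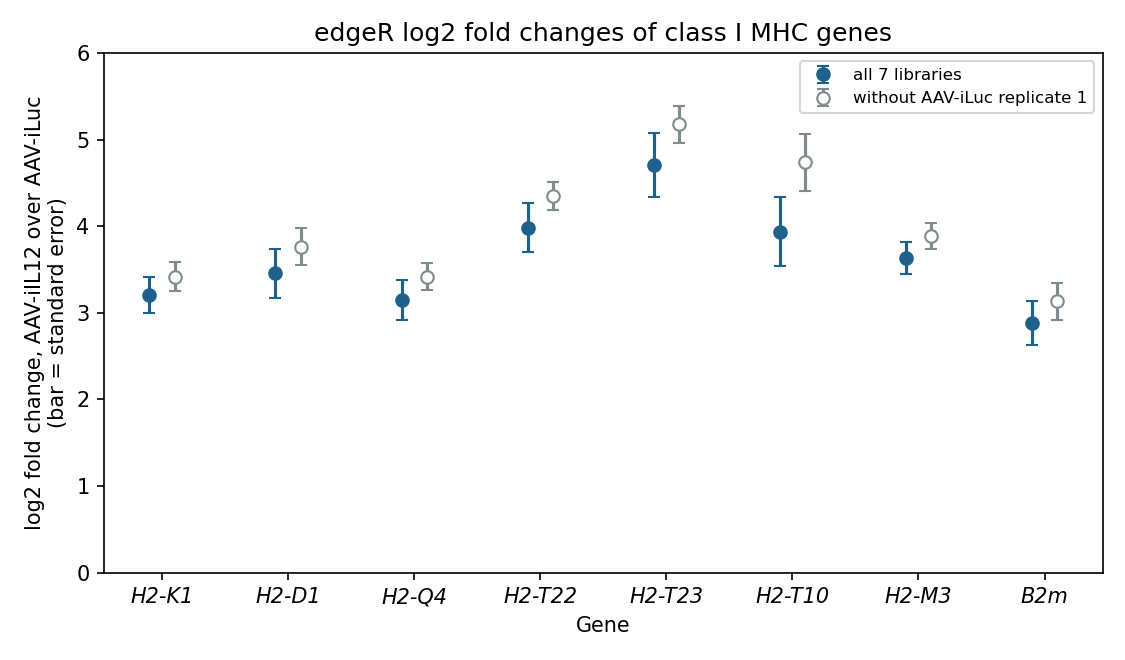
Log2 fold change of AAV-iIL12 over AAV-iLuc for the 8 tested members (edgeR), with bars of 1 standard error, beside the same value without AAV-iLuc replicate 1. The values run from 2.88 (B2m) to 4.70 (H2-T23), and each is larger without that library.

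Whether the non-classical genes and B2m moved by the same factor as H2-K1 was asked within each library, from the log2 ratio of each gene to H2-K1 (limma on log2 CPM, adjusted over all 13989 other genes tested). H2-T23 rose more than H2-K1. Its log2 ratio was -1.80, -1.84 and -1.88 in AAV-iIL12, and it was -2.96, -3.47, -3.76 and -3.59 in AAV-iLuc. The difference was 1.61 ± 0.32 (SE, limma adjusted p = 3.85e-07), which is a 3.04-fold larger rise. In this fit the variance of each ratio is drawn toward that of all genes, whose ratios all share H2-K1. The SE and p of a member therefore reflect this pooled variance more than the spread of its own ratios over the 7 libraries. H2-T22 also rose more than H2-K1, with ratios of -2.64, -2.67 and -2.69 against -3.19, -3.64, -3.62 and -3.51. Its difference was 0.82 ± 0.32 (SE, limma adjusted p = 0.00963), but against H2-D1 in place of H2-K1 it was 0.53 with an adjusted p of 0.213. H2-T23 kept its difference against H2-D1, at 1.31 (limma adjusted p = 0.0019).

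For the other 5 members no difference from H2-K1 passed the test. The difference was 0.29 ± 0.31 (SE) for H2-D1, -0.03 ± 0.31 for H2-Q4, 0.40 ± 0.34 for H2-M3, -0.29 ± 0.31 for B2m and 0.64 ± 0.42 for H2-T10. Of these, H2-D1 and H2-M3 had ratios that did not overlap between groups. The share of all genes with such ratios was not counted, so this describes their values and is no result about these members. The H2-D1 ratios had SDs of 0.03 in AAV-iIL12 and 0.21 in AAV-iLuc, so its SE does not measure their spread. Not passing is therefore no evidence of an equal rise. H2-T10 depended on the settings: its difference was 0.99 (limma adjusted p = 0.0283) with a prior count of 0.5 in place of 2, and 0.87 (adjusted p = 0.0241) without AAV-iLuc replicate 1. So 2 of 7 members differed from H2-K1, where 99.0% of all genes did, most of which did not rise as H2-K1 did. An exact two-sided permutation test over samples, with 35 arrangements, added after the limma result was seen, gave p = 0.0286 for H2-T22 and H2-T23, the smallest it can give. The same exact test gave p = 0.0571 for H2-D1 and H2-M3, 0.0857 for B2m, 0.143 for H2-T10 and 0.657 for H2-Q4, unadjusted over the 7 ratios.

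**Figure D4:**
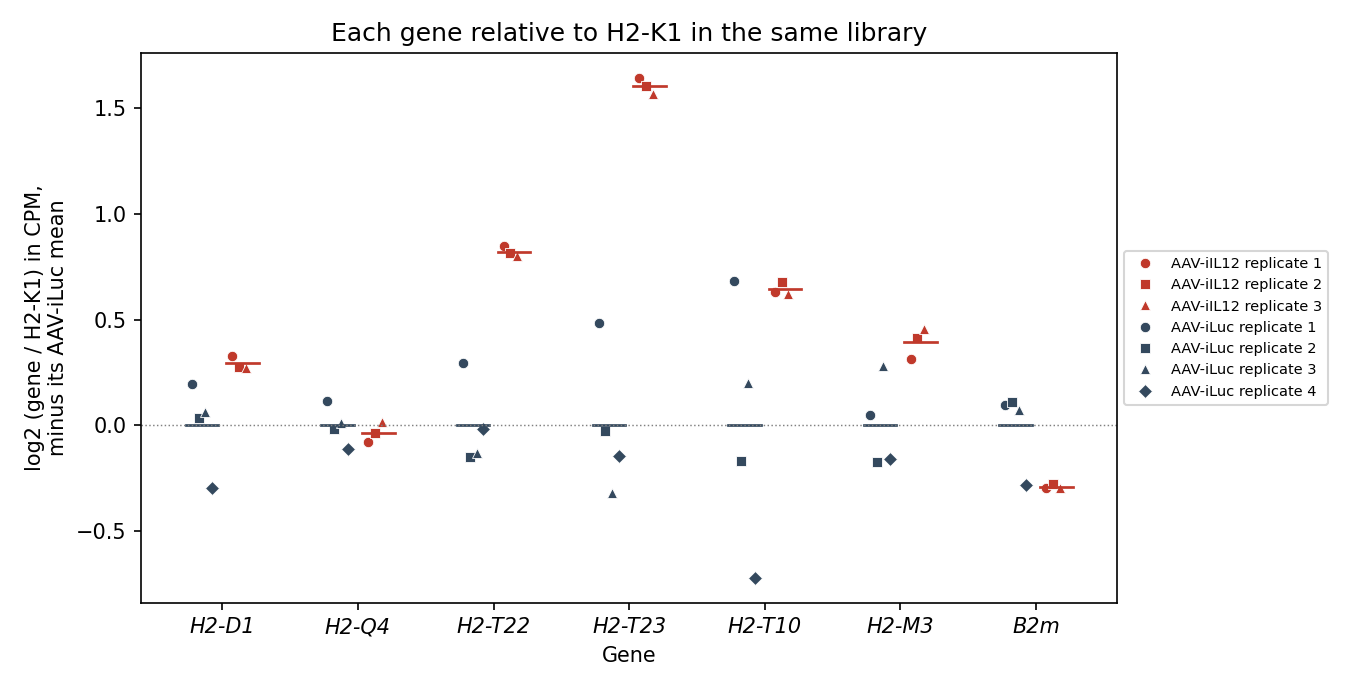
Log2 ratio of each member to H2-K1 in the same library, minus its AAV-iLuc mean (y axis), in red for AAV-iIL12 (n = 3) and dark blue for AAV-iLuc (n = 4), with bars at the group means. H2-T23 stands 1.61 above its AAV-iLuc mean and H2-T22 stands 0.82 above, while H2-Q4 lies at -0.03.

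Levels of different genes were compared per length, as TPM, the length-scaled equivalent of CPM, from the gene lengths in the files. These lengths exceed those of the older transcripts by unlike factors. They are 2938 against 1619 bases for H2-K1, 2579 against 2102 for H2-D1, 2889 against 1472 for H2-T23 and 860 in both for B2m. Orders and ratios between genes therefore depend on the lengths used. In AAV-iLuc the order was B2m (2266 ± 864 TPM, SD, n = 4), H2-K1 (371 ± 115), H2-D1 (360 ± 152), H2-Q4 (79.9 ± 29.7), H2-T23 (37.3 ± 21.8), H2-T22 (29.3 ± 13.6), H2-M3 (8.45 ± 2.85), H2-T10 (0.48 ± 0.42), H2-Q6 and H2-Q7. H2-K1 and H2-D1 did not differ beyond their spread, and the ranges of H2-Q4, H2-T23 and H2-T22 overlapped from neighbour to neighbour, as did those of the last 3 genes. Within a library, though, H2-Q4 was above H2-T23, and H2-T23 above H2-T22, in 4 of 4.

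In AAV-iIL12 the order by these lengths changed in 2 places. It ran B2m (15361 ± 2285 TPM, SD, n = 3), H2-D1 (3628 ± 638), H2-K1 (3142 ± 477), H2-T23 (895 ± 159), H2-Q4 (651 ± 79.6), H2-T22 (426 ± 71.7), H2-M3 (96.5 ± 9.74), H2-T10 (6.93 ± 1.02), H2-Q6 and H2-Q7. The ranges of H2-D1 and H2-K1 overlapped, although H2-D1 was above H2-K1 in 3 of 3 libraries, and so did those of H2-Q6 (0.56 ± 0.24) and H2-Q7 (0.40 ± 0.12). Mean CPM of H2-D1 and H2-K1 were close, at 2589 and 2554, so the order of these 2 rests largely on the lengths. H2-T23 was above H2-Q4 in 3 of 3 libraries with no overlap of their ranges, where it had been below it in 4 of 4 AAV-iLuc libraries.

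The T genes made up a larger part of the heavy chain pool in AAV-iIL12. The summed level of the 9 heavy chains was 8848 ± 1434 TPM (SD, n = 3) in AAV-iIL12 and 886 ± 334 TPM (SD, n = 4) in AAV-iLuc. H2-K1 and H2-D1 made up 76.5% ± 0.18 of it in AAV-iIL12 and 82.7% ± 1.12 in AAV-iLuc, with ranges of 76.4% to 76.7% and 81.2% to 83.7%. The T genes made up 14.99% ± 0.21 against 7.32% ± 1.16, and the Q genes 7.40% ± 0.31 against 9.05% ± 0.12. None of these shares overlapped between groups, while that of H2-M3 did, at 1.10% ± 0.065 against 0.97% ± 0.13. As a ratio of mean TPM, the classical pair was 9.27-fold, the Q genes 8.15-fold, H2-M3 11.4-fold and the T genes 19.8-fold higher. These sums over chosen genes depend on the gene lengths used and were not tested.

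Relative to the summed heavy chains, B2m was lower in AAV-iIL12. Its TPM was 1.74 ± 0.024 times (SD, n = 3) the summed heavy chain TPM in AAV-iIL12 and 2.55 ± 0.19 times (SD, n = 4) in AAV-iLuc. The ranges, 1.71 to 1.76 and 2.30 to 2.74, did not overlap. The size of the ratio in either group depends on the lengths used, which exceed the older transcripts for H2-K1, H2-D1 and H2-T23 but not for B2m. Without AAV-iLuc replicate 1 the AAV-iLuc mean was 2.57, and the classical share there was 83.2%.

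**Figure D5:**
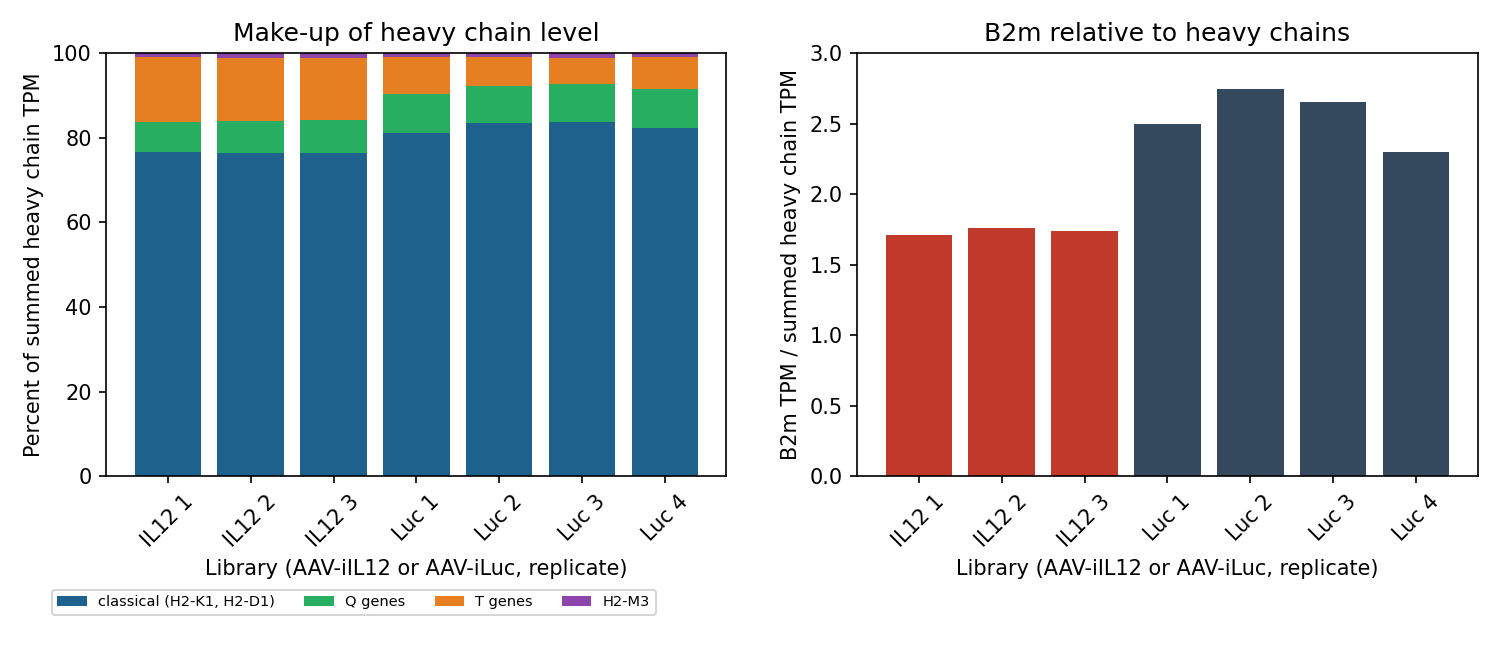
Left, percent of summed heavy chain TPM from the classical, Q, T and M genes in each library. Right, B2m TPM over summed heavy chain TPM, in red for AAV-iIL12 and dark blue for AAV-iLuc; the T share is 14.99% against 7.32% on average and the B2m ratio 1.74 against 2.55.

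Other class I genes of the H2 region were mostly too low to test. Of 23 further genes, 3 were tested. They reached the filter through the AAV-iIL12 libraries, with under 10 counts in every AAV-iLuc library but replicate 1 for H2-T24, so a rise was nearly the only call open to them and their values are given as a description. H2-T24 had 7.86, 4.78 and 6.26 CPM in AAV-iIL12 against 0.88 CPM in AAV-iLuc replicate 1 and 0 in the other 3. H2-T-ps had 4.02, 2.61 and 2.86 CPM against 0.42, 0.49, 0.48 and 0.15 CPM. H2-K2 had 1.04, 1.19 and 1.10 CPM against 0.36, 0, 0.06 and 0.21 CPM.

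Of 7 tested class I-like genes outside the MHC, 4 rose, 1 fell and 2 did not pass, where 23.5% of all genes rose and 23.7% fell. The median log2 fold change was 0.49. Mill2 rose by 2.58, from 4.65 to 28.1 CPM. Cd1d1, which presents lipids to NKT cells, is among the 4 but reached the filter through AAV-iIL12 alone, at 1.83, 2.01 and 1.37 CPM against 0.47, 0.44, 0.42 and 0.21 CPM. Mr1, which presents vitamin B metabolites to MAIT cells, rose by 0.88 (30.6 to 56.1 CPM), and Fcgrt, the neonatal Fc receptor heavy chain, by 0.49. Hfe, a regulator of iron uptake, fell by 0.31. The products of Cd1d1, Mr1, Fcgrt and Hfe are known to pair with β2-microglobulin.

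NKG2D ligands are stress-induced class I-like proteins read by natural killer cells. Of 5 present, 4 were tested, 0 rose and 2 fell; with 4 genes and 23.5% of all genes rising, the 0 is not a result about the group. Raet1d fell by 1.19, from 4.50 to 1.97 CPM (edgeR adjusted p = 0.000382), and Ulbp1 by 0.53 (adjusted p = 0.0177). The annotated spans of Raet1d and H60b lie within that of Raet1e on the same strand. Fragments that overlap exons of more than 1 gene were not counted, so the levels of these genes are less certain. The call of Ulbp1 ended without AAV-iIL12 replicate 2 or 3 (adjusted p = 0.0648 and 0.0719). Raet1e, at 0.05, and H60b, at 0.12, did not pass (adjusted p = 0.694 and 0.689). The median of the 4 was -0.24.

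Most genes that make and load class I peptides rose, apart from the general chaperones. Of 13 tested, 10 rose, 1 fell and 2 did not pass, with a median log2 fold change of 3.29 (23.5% of all genes rose). Psmb10, an immunoproteasome subunit, rose by 3.29, and Psme1 and Psme2, subunits of a proteasome activator, by 2.60 and 2.56. Tapbpl, a peptide editor, rose by 3.94, from 10.96 to 168.7 CPM. The other members are named after their values were seen. Psmb8 and Psmb9 of the immunoproteasome rose by 4.62 and 4.56, and by 5.80 and 6.04 without AAV-iLuc replicate 1. Psmb8 was at 43.9 CPM in that library and at 13.5, 6.08 and 2.68 CPM in the others of its group, against 446, 404 and 380 CPM in AAV-iIL12. Tap1 and Tap2 of the peptide transporter rose by 4.14 and 4.23, and by 5.05 and 4.85 without that library. Tapbp (tapasin), which holds the heavy chain at the transporter, rose by 3.38, and the trimming peptidase Erap1 by 2.76. In AAV-iLuc replicate 1 Tap1 was at 106 CPM, against 36.2, 20.9 and 13.7 CPM in the other libraries of that group and 801, 775 and 760 CPM in AAV-iIL12. Canx, a chaperone of newly made glycoproteins, fell by 0.32, from 1377 to 1102 CPM (adjusted p = 0.00118). Calr, at -0.20, and Pdia3, at -0.11, did not pass (adjusted p = 0.0537 and 0.233), and the number that fell was 2 or 3 with 5 of the other scalings, filters and tools and without AAV-iLuc replicate 4.

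Of 17 tested transcription factors that act on class I or class II promoters, 11 rose, 1 fell and 5 did not pass, with a median of 0.58 (23.5% of all genes rose). Irf1, which binds the interferon-stimulated response element, rose by 4.27, from 120.7, 24.0, 24.5 and 16.8 CPM to 890, 920 and 892 CPM, and by 5.38 without AAV-iLuc replicate 1. Stat2, which carries the type I interferon signal, rose by 3.34, and Irf9, its partner, by 1.64. Ciita, which switches on class II genes, was at 240, 198 and 188 CPM in AAV-iIL12 and at 10.4, 1.04, 0.24 and 0.21 CPM in AAV-iLuc. Its log2 fold change was 6.09, and 8.70 without AAV-iLuc replicate 1, which held most of its control counts. Ciita is among the 11 but reached the filter through the AAV-iIL12 libraries, since only 2 AAV-iLuc libraries held at least 10 of its counts. Its values are therefore given as a description. Nlrc5, the transactivator of class I genes, rose by 3.72, from 85.4, 36.7, 25.1 and 18.3 CPM to 589, 520 and 530 CPM, and by 4.36 without AAV-iLuc replicate 1 (named after its values were seen). Nfya, a subunit of the factor that binds the Y box, fell by 0.17 (edgeR adjusted p = 0.0172), and that call ended without AAV-iIL12 replicate 2 or 3 (adjusted p = 0.0702 and 0.0647) and with no low-count filter (adjusted p = 0.0611). The number that fell was 5 with library size only or the upper quartile as scaling. None of the 12 receptors that read class I passed the low-count filter. With no filter 2 were called higher, but no receptor held more than 9 counts in any AAV-iIL12 library. Those calls rest on very few counts and are a description only.

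The sorted cells were melanocytic by their markers. The summed level of 7 melanocytic genes was 27845 to 28742 CPM in AAV-iIL12 and 22839 to 25991 CPM in AAV-iLuc. Of the 7, 3 rose (Pmel, Mlana and Mitf), where 23.5% of all genes tested rose. Dct, Tyrp1, Sox10 and Tyr did not pass, with Tyr at a log2 fold change of -0.17. Endothelial markers summed to at most 0.609 CPM, with Cdh5 and Emcn at 0 in every library. The 7 fibroblast markers summed to 56.7 to 155 CPM in AAV-iIL12 and 82.3 to 287 CPM in AAV-iLuc, and none passed the edgeR test. Of the leukocyte markers, Ptprc, the gene of CD45, was at 2.25, 2.44 and 1.04 CPM in AAV-iIL12 and at 2.44, 0.16, 0.06 and 0.41 CPM in AAV-iLuc. The part of residual leukocytes in the class I values was not tested. In bulk RNA, a change in the number of cells that express a gene and a change in RNA per cell cannot be told apart.

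The genes whose profile over the 7 libraries was most like that of B2m were Bst2, Parp12, Parp9 and Oas2, with a root mean square difference of 0.07, 0.10, 0.12 and 0.12 on the log2 CPM scale after centring. Those most like H2-K1 were C1ra, C4b, Rnf19b and Isg15, at 0.07, 0.08, 0.08 and 0.13. All 7 points share their libraries and scaling, and the profiles are dominated by the difference between groups. Log2 fold changes were 2.92 for Bst2, 2.82 for Parp12, 3.32 for C1ra and 3.33 for C4b.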

How the data were processed

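Live CD45-negative CD31-negative cells of 7 B16 tumours gave 7 libraries, grouped by the treatment label. Per the file headers, the authors counted fragments per gene with featureCounts 1.6.0 on GENCODE vM32 exons, paired and reverse-stranded, with no option for multi-mapping or overlapping reads. The submitters' processing notes name STAR 2.7.9a and GRCm39. The deposited values are raw counts, and the gene length in the file headers is another deposited number. Total counts ran from 16356653 to 19080587. Identifiers were matched to symbols for 52029 of 56953 genes, which hold 99.4% of counts.

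The counts were tested with edgeR 4.0.16 (quasi-likelihood, TMM, filterByExpr, Benjamini-Hochberg at 0.05) in R 4.3.3, over 13990 genes. Standard errors come from the F statistic. Ratios to H2-K1 were tested with limma 3.58.1 on log2 CPM (prior count 2). TPM used the deposited lengths. The tests were checked on simulated counts. Alternatives were other scalings and filters, DESeq2 1.42.0, limma-voom, a replicate block, another prior count, summed copies and each library left out.

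The members and gene lists were chosen with earlier results of these data known. From each list the text names the members with the 4 smallest p, the most abundant and any that fell, or all members where fewer than 5 were tested; 1 gene that the rule names is not reported here. Genes like B2m and H2-K1 are the 4 nearest with a mean of at least 4 CPM. H2-Ke6, which fitted the symbol rule for other class I genes but is none, was left out. H2-K1 has several promoter entries, of which the first was used. Within groups, no library repeated another within sampling noise (chi-square per degree of freedom at least 3.49). The design text counts libraries as mice, and no batch is labelled.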

Additional observations from a re-analysis of the deposited data

How the results depend on the processing

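The log2 fold changes of the 8 tested members kept their direction and passed the test in all 126 alternative fits, with the largest adjusted p at 0.000248 (H2-T10). For H2-T10 a rise was nearly the only call open, so its fits are a description only. Of 367 alternative values of other named genes, 354 kept direction and call, 8 lost the call and 5 changed sign. Raet1e, at 0.05 and not called, was -0.042 with library size only, -0.024 with the upper quartile, and -0.0034 to 0.10 with 1 library left out. H60b, also not called, was -0.020 to 0.23 with 1 library left out. Against H2-K1, H2-T10 was 0.99 with a prior count of 0.5, and 0.40 to 0.87 with 1 library left out. H2-Q4 was -0.071 to 0.0048 with 1 library left out, and H2-T22 was 0.53 with H2-D1 as the reference. Without length, the classical share in AAV-iIL12 was 75.9%, and B2m over heavy chains was 0.540 in AAV-iIL12 and 0.794 in AAV-iLuc. Without H2-Q6, H2-Q7, H2-T10 and H2-T22, the classical shares were 80.4% and 85.5% and the B2m ratio in AAV-iIL12 was 1.83. The cause of these changes was not tested, other than the change of scale when length is dropped.

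Same-numbered libraries did not clearly deviate together (correlations 0.09, 0.03 and -0.05), which gave no clear sign that the numbers pair the samples. The best partner in the other group had the same number for AAV-iIL12 replicate 1 only. With the replicate block, 2832 genes rose and 2828 fell. The block took B2m against H2-K1 to -0.38 (limma adjusted p = 0.0293) and Raet1e to -0.0023, and ended the calls of Ulbp1 and Nfya (edgeR adjusted p = 0.0558 and 0.0699). With 3 and 4 libraries, an exact permutation test cannot go below p = 0.0286, and H2-Q6 and H2-Q7, at 17 and 25 counts against 3 and 5, are limited by depth.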
